A study of Bos taurus with 2 samples.

Results

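Heat shock proteins and their cochaperones were described across testis tissue of crossbred and Zebu bulls. The members were taken by name: every gene name on the array that begins with HSPA, HSPB, HSPD, HSPE, HSPH, HSP90 or DNAJ, or with CCT followed by a digit. This gave 80 of the 32429 gene names, read by 188 probes, each 60 bases long, on 200 spots. By family they were 14 HSP70 and HSP110 genes (HSPA and HSPH1), 3 HSP90 genes, the mitochondrial pair HSPD1 and HSPE1, and 7 small heat shock proteins (HSPB). A further 9 genes were chaperonin subunits or their relatives (CCT), and 43 were J-domain proteins, of which 4 were DNAJA, 13 DNAJB and 26 DNAJC. HSPBP1 and HSPBAP1, which bind HSP70 and HSPB1, respectively, also begin with these letters and were kept.

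The study set the testicular transcripts of crossbred bulls, in which subfertility is frequent, against those of Zebu bulls. The labels name crossbred and Zebu adult males, 24 months old by the study's methods. The crossbreds were Holstein Friesian crosses (Bos taurus x Bos indicus) with part of their inheritance exotic. The Zebu bulls (Bos indicus) were of the Tharparkar breed. No treatment is named for either group. Each was represented by 1 array (1 colour, Agilent Bos taurus gene expression design) of RNA pooled in equal amounts from the right testes of 3 bulls. The part of sequence differences between the bulls and the probes in the signals was not tested. Because the 3 bulls of a group share 1 array, the spread between animals could not be seen and no test between the groups was possible. A level is given as the log2 signal minus the 75th percentile of its array, so a level of 0 is that percentile, and a difference is the crossbred level minus the Zebu level. The only error available was that of replicate spots within an array: over 5960 probes spotted more than once, the SD of a difference was 0.34. It covers spotting and scanning and not animals, pooling or labelling. A difference of at least 1.5, which is 2.83-fold, was called higher or lower where the brighter array read the probe well above background.

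Chaperones bind unfolded or partly folded proteins and help them to fold, to assemble or to be degraded. HSP70 proteins do so in cycles of ATP hydrolysis, which J-domain proteins stimulate and nucleotide exchange factors such as HSP110 and BAG proteins reset, HSP90 acts later on clients such as kinases and steroid receptors, and small heat shock proteins hold unfolded proteins without ATP. The testis is known for chaperones of its own: meiotic and haploid germ cells express members of several of these families that other tissues use little, while the heat inducible members are shared with all cells.

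Probes of the members on which the results turn are shown here as the array's design gives them, 5′ to 3′, with positions on the build named in the scanner file, HGSC Btau_3.1. A probe printed here is not always the brightest of its gene, from which a gene's value is read: for HSPA2, HSPA8, HSP90AA1, HSP90AB1, HSPB8, CCT6B, HSPA1A, DNAJA4 and DNAJB4 it is one of the further probes. No gene annotation of that build was used here, so whether a probe lies in 1 exon or across 2 is given only where its interval on the genome is longer than the probe. The first set holds probes of relatives that read nearly the same stretch of 2 genes. Each pair was laid side by side without gaps, and capitals mark the letters that both probes share.
HSPA1L: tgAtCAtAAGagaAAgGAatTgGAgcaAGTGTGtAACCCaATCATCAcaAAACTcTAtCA
HSPA2: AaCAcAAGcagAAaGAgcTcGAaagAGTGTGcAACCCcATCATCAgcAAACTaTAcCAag
HSPA8: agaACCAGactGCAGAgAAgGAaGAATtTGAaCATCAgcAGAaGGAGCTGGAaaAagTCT
HSPA6: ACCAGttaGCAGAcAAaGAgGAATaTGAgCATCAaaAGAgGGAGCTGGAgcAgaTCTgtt
DNAJB8: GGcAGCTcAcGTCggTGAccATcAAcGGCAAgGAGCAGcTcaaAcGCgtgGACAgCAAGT
DNAJB3: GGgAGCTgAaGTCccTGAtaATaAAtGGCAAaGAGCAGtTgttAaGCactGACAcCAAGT
HSP90AA1: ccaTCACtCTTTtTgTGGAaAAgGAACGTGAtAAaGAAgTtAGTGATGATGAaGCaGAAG
HSP90AB1: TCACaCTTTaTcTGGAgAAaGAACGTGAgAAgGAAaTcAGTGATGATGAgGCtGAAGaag

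HSPA1L (chr23:27330120-27330179, plus strand) and HSPA2 (chr10:78880002-78880061, plus strand) shared 40 of 58 overlapping bases. HSPA8 (chr15:32348525-32348871, minus strand, an interval longer than the probe) and HSPA6 (chr3:8748912-8748971, minus strand) shared 42 of 57. DNAJB8 (chr22:61214827-61214886, plus strand) and DNAJB3 (chr3:120762208-120762267, minus strand) shared 41 of 60. HSP90AA1 (chr21:67027997-67028342, minus strand) and HSP90AB1 (chr23:18390504-18390686, plus strand), both on intervals longer than the probe, shared 46 of 57. Among all pairs of member probes of different genes, 8 had at least 60% of letters alike over 40 or more bases. Signal that a probe takes from a relative's transcript could not be measured from these files.

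The second set holds 1 probe each of 6 other members on which the results turn.
HSPA4L: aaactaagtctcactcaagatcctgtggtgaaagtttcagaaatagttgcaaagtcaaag
DNAJB4: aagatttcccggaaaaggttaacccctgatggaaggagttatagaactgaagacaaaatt
DNAJA4: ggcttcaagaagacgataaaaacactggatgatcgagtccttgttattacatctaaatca
HSPB8: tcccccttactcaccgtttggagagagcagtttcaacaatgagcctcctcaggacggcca
CCT6B: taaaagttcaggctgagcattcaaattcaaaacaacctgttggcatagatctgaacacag
HSPA1A: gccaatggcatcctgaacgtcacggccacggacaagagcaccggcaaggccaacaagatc

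They lie at chr17:31666818-31666877 (HSPA4L, minus strand), chr21:30721175-30721234 (DNAJA4, plus strand), chr17:59096900-59096959 (HSPB8, minus strand), chr19:14614479-14614538 (CCT6B, plus strand) and chr23:27311987-27312046 (HSPA1A, minus strand). The DNAJB4 probe has no position in the scanner file. Of the 188 member probes, 184 have one.

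For all 80 members the probe read passed the background flag in 1 of the groups or more, and for 78 in both. Of these 80, 9 were higher in the crossbred testis by 1.5 or more and 2 were lower, which is 11.25% and 2.5%. Over all 24751 gene names detected, the shares were 7.12% higher and 2.92% lower. At a log2 difference of 2 the members' share of higher calls (3.75%) was near that of all gene names (3.49%), so an excess of higher members is not seen at every threshold. The higher members were HSPA4L, DNAJB8, HSPA1L, CCT8L2, DNAJC5B, DNAJB4, DNAJB7, DNAJA4 and DNAJC10, which lie on 9 different chromosomes, and the lower ones were CCT6B and HSPB8. The median difference was 0.16 over the members and -0.05 over all detected gene names. Above 0 were 58.75% of the members and 46.8% of all detected gene names. For 33 of the 80 members the difference was within the SD of replicate spots. Among the 12 members known mainly from germ cells, a list drawn up with earlier results known, 6 were higher and 1 was lower. Among the other 68 members 3 were higher and 1 was lower, which is 4.41% and 1.47%. Both shares were below the 7.12% and 2.92% of all detected gene names. The members' excess of higher calls at 1.5 was thus not seen outside the germ cell list.

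**Figure D1:**
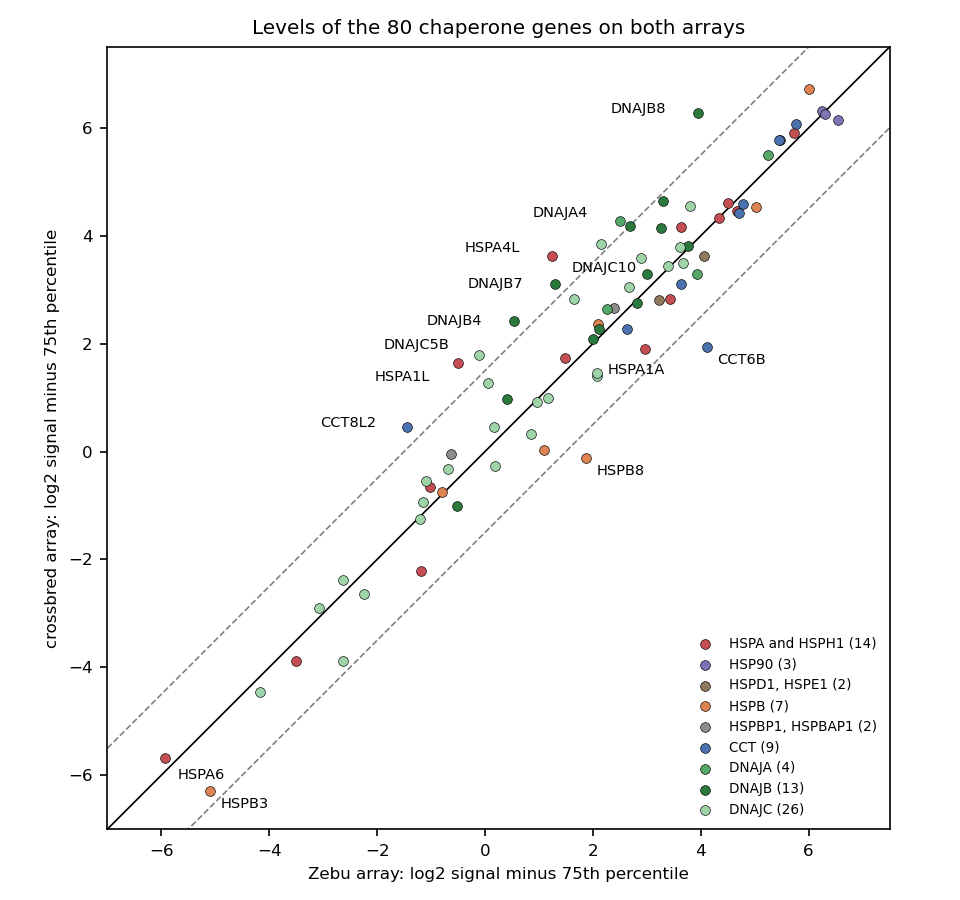
Level of each of the 80 chaperone genes on the Zebu array (x axis) and on the crossbred array (y axis), as log2 signal minus the array's 75th percentile, coloured by family with the number of genes in brackets. The solid line marks equal levels and the dashed lines a difference of 1.5 in each direction. The 9 members above the upper line and the 2 below the lower line are named, with HSPA1A, HSPA6 and HSPB3 for orientation.

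Of the germ cell chaperones, HSPA4L, an HSP110 relative abundant in germ cells, had a level of 3.63 in the crossbred and 1.24 in the Zebu testis. The difference of 2.39 (5.25-fold) was the largest among the members. DNAJB8, a J-domain protein that keeps aggregation-prone proteins soluble, had a level of 6.27 against 3.96, a difference of 2.32 (4.98-fold). HSPA1L, the HSP70 of spermatids, had a level of 1.65 against -0.51, a difference of 2.16 (4.46-fold). Each of these rests on 1 probe of that name. A further probe on the array carries the accession of the HSPA1L transcript in place of the symbol, and it gave 2.90 against 0.75, a difference of 2.15.

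DNAJC5B, a cysteine string protein, had a level of 1.79 against -0.10, a difference of 1.90. CCT8L2, a relative of the chaperonin theta subunit, had a level of 0.45 against -1.44, also a difference of 1.90. DNAJB7, another J-domain protein of the DNAJB6 kind, had a level of 3.10 against 1.29, a difference of 1.81. All 6 were brighter on the crossbred array by more than 3-fold. DNAJB3, expressed in haploid germ cells, was just under the threshold with 4.18 against 2.70, a difference of 1.48. DNAJB13, a component of the radial spokes of the sperm flagellum, had 4.65 against 3.29, a difference of 1.36.

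The other germ cell members differed less. HSPB9, a small heat shock protein of the testis, gave 6.72 against 6.01, a difference of 0.71, and 0.14 with its second probe, which shares a run of 55 bases with the first. DNAJC5G gave 3.60 against 2.89, a difference of 0.70, and 0.62 with its second probe. HSPA2, the HSP70 that spermatocytes need to pass through meiosis, gave 4.16 against 3.64, a difference of 0.52, and 0.66 with the probe printed above. With the probe read, all 3 were higher in the crossbred testis by more than the SD of replicate spots but below the threshold. The second HSPB9 probe was within that SD. The list's median was 1.64, and 11 of its 12 members were above 0 (91.7%, against 46.8% of all detected gene names). The list was drawn up with earlier results of these arrays known, so the count describes these libraries and is no independent evidence of a direction.

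CCT6B, the form of the chaperonin zeta subunit known from the testis, went the other way. Both of its spots lie in patches where the crossbred array is darker or brighter than the Zebu array. Its brighter probe read 1.94 in the crossbred and 4.11 in the Zebu testis, a difference of -2.18 (4.52-fold lower). That spot lies in a dark patch of 544 non-control spots, where the median difference of 408 spots above background was -1.37. Around this spot, the median of 11 of its 18 nearest spots was -3.39. The other probe, printed above, read 0.01 against 2.08, a difference of -2.07, and lies in a bright patch of 105 non-control spots, where the median difference of 100 spots was 1.29. Its 18 nearest spots had a median of 2.39. Hence 1 probe was lower within a patch of lowered signal and the other was lower within a patch of raised signal, and without these spots CCT6B was not measured and HSPB8 was the only lower member. The part of the patches in the CCT6B values was not tested. The only other member spot in a patch belongs to HSPBAP1, whose probe in the dark patch differed by 0.02 where its surroundings differed by -1.04, while its brightest probe, outside, differed by 0.58.

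The markers of spermatids were higher alongside the germ cell list. All 10 spermatid markers, the protamines PRM1 and PRM2 among them, were higher in the crossbred testis, 6 of them by 1.5 or more, with a median of 1.73 and a range from 0.36 (PRM1) to 2.92 (SPEM1). Their summed level on the log2 scale was 9.53 against 8.50. Of these markers, the study also measured TNP1, TNP2 and SPEM1 by qPCR. It reports TNP1 and TNP2 significantly higher in crossbred bulls, as on its array. For SPEM1 it reports a trend opposite to its array. It calls the SPEM1 difference significant, but as upregulation in its results and as downregulation in its discussion. The 7 spermatocyte markers on the array were also higher, with a median of 0.41 and none past the threshold, and summed to 4.80 against 4.35. The spermatogonial markers had a median of -0.61 (7 of 10 lower, summed 5.43 against 5.77). Of the somatic lists, 3 were lower with every marker: 8 of 8 Sertoli cell markers (median -0.99, summed 7.26 against 7.91), 7 of 7 Leydig cell markers (median -0.57, summed 6.46 against 7.05) and 7 of 7 peritubular and smooth muscle markers (median -0.77, summed 5.22 against 5.95). Endothelial (median 0.08, summed -0.07 against -0.04) and macrophage markers (median 0.10, summed 3.23 against 2.83) had medians near 0. The endothelial markers ranged from -0.38 to 0.28, and the 4 macrophage markers on the array from -0.19 to 0.56. The macrophage marker CD163 was not well above background in the crossbred testis and entered its list as a bound. Of the red blood cell markers, HBB and ALAS2 were not well above background on either array, while HBA was lower by 2.15 and AHSP differed by 0.09, and the list summed to -0.03 against 1.46. All spermatid, spermatocyte, Sertoli and Leydig markers on the array were read above background on both arrays, so the defining markers of the testis were present. In whole tissue, fewer cells of a type and less RNA per cell cannot be told apart, and the part of the cell makeup in the chaperone differences was not tested.

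**Figure D2:**
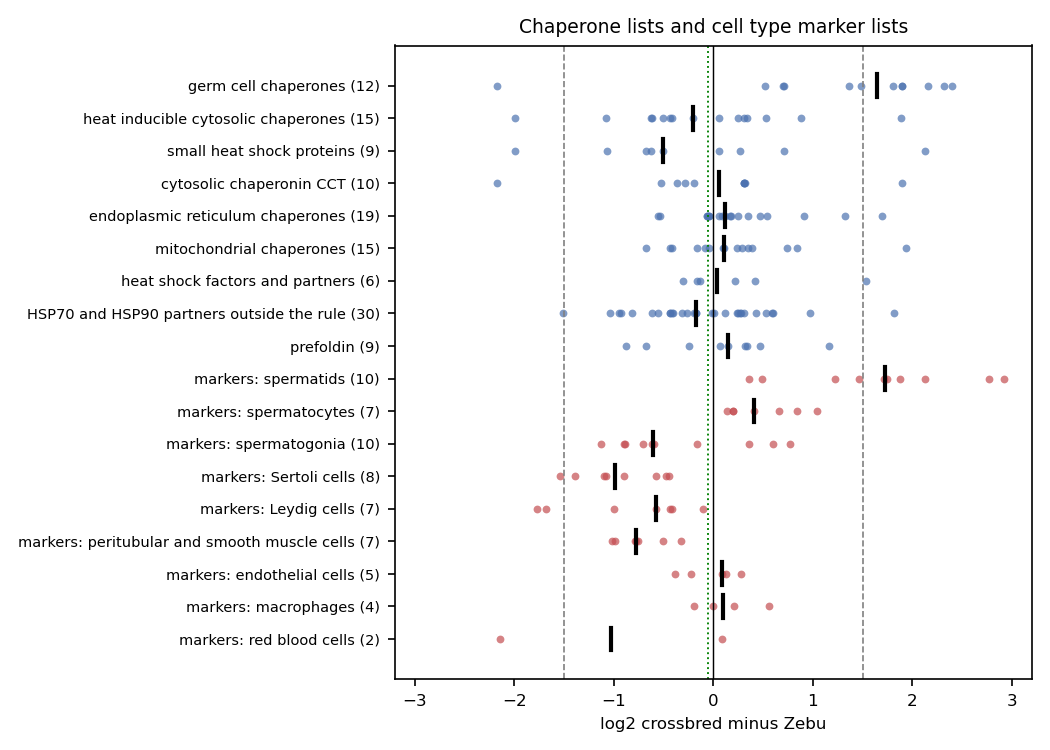
Difference between the crossbred and the Zebu array on the log2 scale (x axis) for each detected gene of the chaperone lists (blue) and of the cell type marker lists (red), with the number of genes in brackets. Black bars are medians, the dotted green line is the median of all detected gene names (-0.05), and the dashed lines mark 1.5 in each direction. Germ cell chaperones (median 1.64) and spermatid markers (1.73) lie furthest to the right, and Sertoli cell markers (-0.99) are all to the left of 0.

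Several germ cell members have a relative of the same family letter and number outside the germ cell list, and the differences of the 6 such pairs were set side by side. These pairs were chosen after their values were seen. HSPA1L was 2.16 and HSPA1A -1.08, and all 5 HSPA1A probes were below 0. HSPA4L was 2.39 and HSPA4 -0.02. DNAJC5B was 1.90 and DNAJC5G 0.70, against 0.25 for DNAJC5. CCT8L2 was 1.90 and CCT8 -0.19. In these 5 pairs the germ cell member exceeded its relative by 0.46 to 3.24, while CCT6B (-2.18) was below CCT6A (-0.52).

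**Figure D3:**
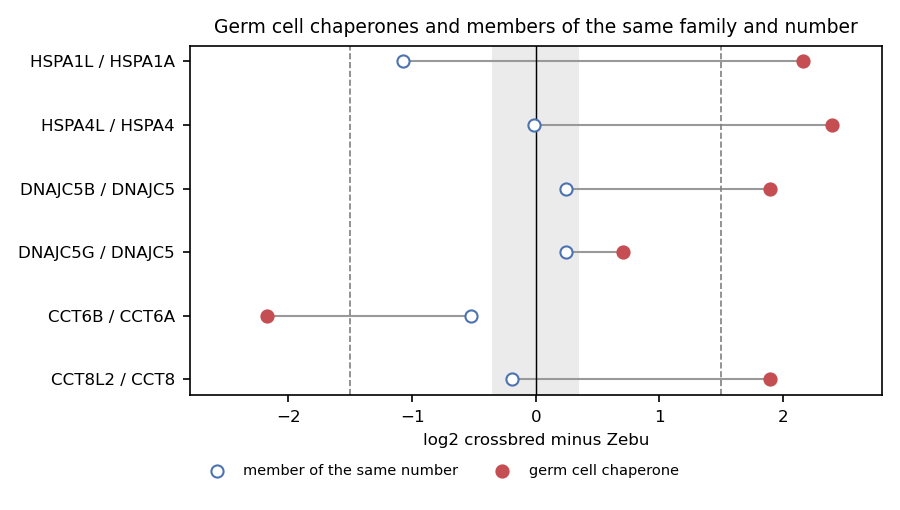
Difference on the log2 scale (x axis) of 6 germ cell chaperones (filled red) and of the members of the same family and number (open blue), 1 pair a row. The grey band is the replicate-spot SD of a difference (0.34 to each side of 0) and the dashed lines mark 1.5. The filled point is to the right of the open one in 5 of 6 rows, and CCT6B, read only from spots in the 2 patches, is to the left.

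In the HSP70 and HSP110 family, 2 of 14 members were higher (14.3%, against 7.12% of all detected gene names). These were HSPA4L and HSPA1L, both of the germ cell list. None was lower (against 2.92%), and the family's median was 0.13. Close to HSPA12A (-1.02), the stress inducible HSPA1A had the lowest difference of the family. Its brightest probe read 1.90 in the crossbred and 2.97 in the Zebu testis, a difference of -1.08. Its other probes gave -0.63, -0.89, -1.02 and -1.30, so all 5 were lower by more than the SD of replicate spots and none passed 1.5. Of these, 2 share a run of 29 bases. HSPA1B, the near copy of HSPA1A, has no probe of that name, and signal of the 2 genes may not be separable.

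HSPA8, the constitutive HSP70 of the cytosol, read 4.46 against 4.67, a difference of -0.21. Its 6 probes were all below 0, from -0.21 to -1.06, and the 2 dimmest probes gave the largest differences. HSPH1, the heat inducible HSP110, read 2.82 against 3.44, a difference of -0.61. HSPA4, a constitutive HSP110, read 4.32 against 4.34, a difference of -0.02, but its second probe gave -1.19. Both HSPA4 probes were thus below 0, and the size of the difference depends on the probe read.

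HSPA5, the HSP70 of the endoplasmic reticulum, read 5.90 against 5.74, and its 4 probes were all slightly above 0, from 0.16 to 0.42. HSPA9, its counterpart in mitochondria, gave 0.10 (4.60 against 4.50) and -0.35 with a second probe. HSPA13 gave 0.35 (-0.66 against -1.01) and HSPA14, which works at the ribosome, 0.24 (1.73 against 1.49). HSPA12A, a distant relative, read -2.21 against -1.19, a difference of -1.02, and HSPA12B read -3.89 against -3.50, a difference of -0.38. For HSPA6, an inducible HSP70, the probe of that name was well above background in the crossbred testis only, with -5.68 against -5.93, at the lower end of what the arrays read. On that probe it was at least 1.19-fold higher. A further probe that carries the accession of HSPA6 in place of its symbol was above background on both arrays and read -3.42 against -2.87, a difference of -0.55, so the direction of HSPA6 is unsettled.

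The 3 HSP90 genes differed little. HSP90B1 of the endoplasmic reticulum read 6.26 against 6.31, a difference of -0.05. HSP90AA1, the inducible cytosolic form, read 6.31 against 6.26, a difference of 0.06, with 5 of its 6 probes above 0 and the range from -0.56 to 0.69. HSP90AB1, the constitutive form, read 6.14 against 6.54, a difference of -0.40, with 5 of its 6 probes below 0 and the range from -0.81 to 0.07. The printed probes of these 2 genes, alike in 46 of 57 bases, read 4.88 against 4.19 for HSP90AA1 and 3.42 against 4.05 for HSP90AB1. Their differences of 0.69 and -0.63 thus had opposite signs.

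The mitochondrial chaperonin was lower with every probe. HSPD1 read 2.82 in the crossbred and 3.23 in the Zebu testis, and its 5 probes lay between -0.41 and -0.70. HSPE1, its lid, read 3.62 against 4.06, and its 2 probes gave -0.44 and -0.53. All 7 differences were larger in size than the SD of replicate spots, and none reached 1.5.

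**Figure D4:**
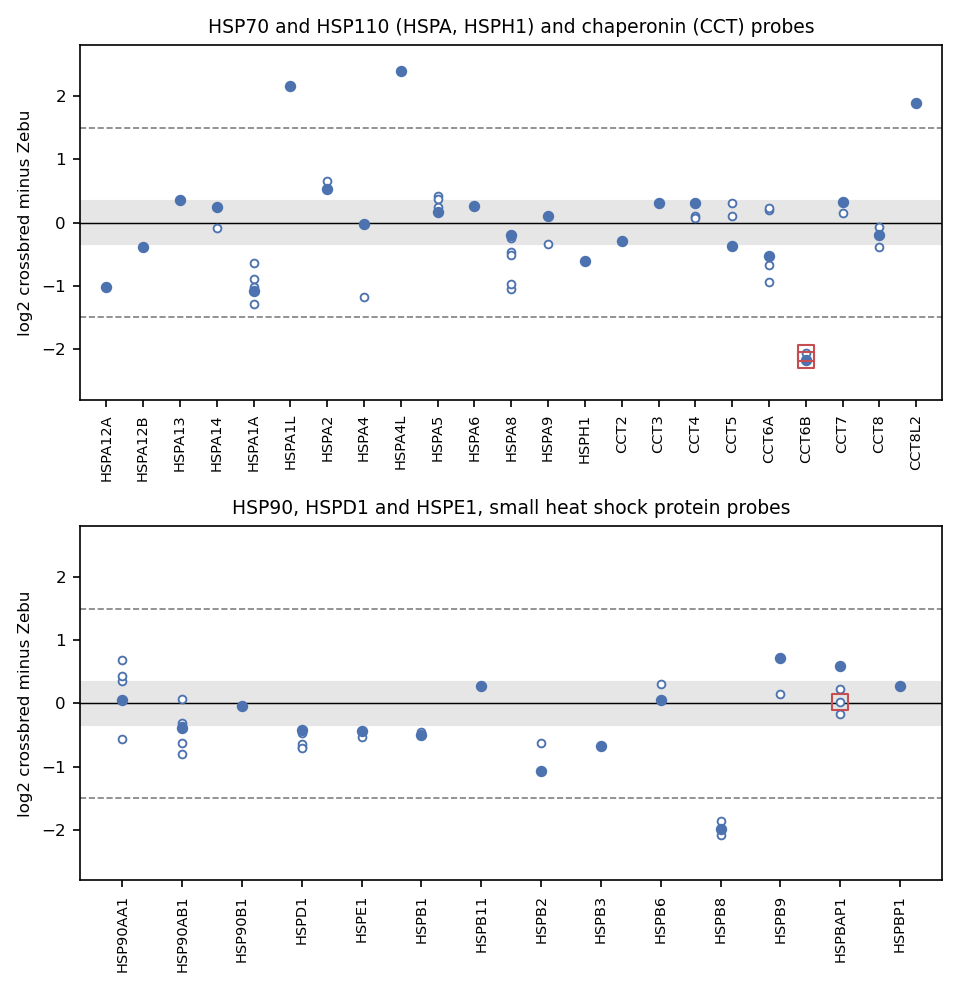
Difference between the crossbred and the Zebu array on the log2 scale (y axis) for every detected probe of the HSP70, HSP110 and CCT genes (upper panel) and of the HSP90, HSPD1, HSPE1 and small heat shock protein genes (lower panel). Filled points are the brightest probe of a gene, open points its other probes, and red squares mark probes with a spot in the dark or the bright patch. HSPA6 and HSPB3 are drawn at their bound. The grey band is the replicate-spot SD of a difference (0.34) and the dashed lines mark 1.5. All probes of HSPA1A, HSPA8, HSPD1, HSPE1 and HSPB8 lie below 0.

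Of the 7 small heat shock proteins on the array by the HSPB name, HSPB8 was lower and none was higher. That is 14.3% lower, against 2.92% lower and 7.12% higher of all detected gene names. HSPB8, which works with the cochaperone BAG3 in the removal of misfolded proteins, read -0.12 in the crossbred and 1.87 in the Zebu testis, a difference of -1.99 (3.97-fold lower). Its other probes read -4.69 against -2.83, a difference of -1.86, and -5.13 against -3.04, a difference of -2.09. The 3 probes therefore agreed within 0.34, the SD of replicate spots, of the brightest one. The 2 further probes were dim in the crossbred testis, where the lowest level well above background was -5.78. HSPB2, found mainly in muscle, read 0.04 against 1.10, a difference of -1.06, and -0.63 with its second probe. HSPB1 (HSP27) read 4.53 against 5.03, a difference of -0.50, and -0.45 with a second probe.

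HSPB3 was well above background only in the Zebu testis (-5.10, against -6.30), which makes it at least 1.60-fold lower in the crossbred testis. HSPB6 read -0.75 against -0.81, a difference of 0.06, and HSPB11, now named IFT25 and part of the transport machinery of cilia, 2.36 against 2.09, a difference of 0.27. HSPB11 has 1 spot, and its surroundings differed by a median of 1.13, the only member spot outside both patches whose surroundings differed by more than 1. Outside the names of the rule, the small heat shock protein CRYAB gave -0.63 (1.13 against 1.75), CRYAA was not well above background on either array, and ODF1, a protein of the outer dense fibres of the sperm tail that carries a small heat shock domain, was 2.13 higher (5.41 against 3.28). ODF1 also stands in the list of spermatid markers. The peritubular and smooth muscle markers given above were lower by 0.32 to 1.02, beside the lower HSPB1, HSPB2, HSPB8 and CRYAB, and their part in these values was not tested.

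The subunits of the cytosolic chaperonin that all cells use differed little. CCT3 (0.31), CCT4 (0.30) and CCT7 (0.32) were slightly above 0, as was TCP1, the alpha subunit (0.31), which lies outside the rule. CCT2 (-0.29), CCT5 (-0.37), CCT6A (-0.52) and CCT8 (-0.19) were below 0. Their levels ranged from 2.27 (CCT5) to 6.08 (CCT3) in the crossbred and from 2.64 (CCT5) to 5.77 (CCT3) in the Zebu testis. Further probes of CCT5 and CCT6A crossed 0, with ranges from -0.37 to 0.31 and from -0.94 to 0.23. Besides CCT8L2 and CCT6B no member of this family passed 1.5. Each was 11.1% of the 9 CCT names, against 7.12% higher and 2.92% lower of all detected gene names.

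Of the 43 J-domain proteins, 6 were higher (13.95%, against 7.12% of all detected gene names) and none was lower (against 2.92%). There were 29 above 0 (67.44%, against 46.8%), and the median of the 43 was 0.25. Of the 6 higher ones, DNAJB7, DNAJB8 and DNAJC5B are of the germ cell list. In the DNAJA class, DNAJA4, which responds to sterols, read 4.28 in the crossbred and 2.50 in the Zebu testis, a difference of 1.78 (3.43-fold). Its other probes gave 1.71, 1.54 and 1.29, and the first and last of these share a run of 47 bases. All 4 probes were thus higher, and 3 of them passed 1.5. DNAJA1, a main partner of HSPA8, read 5.49 against 5.24, a difference of 0.25, with 5 probes from 0.19 to 0.75. DNAJA2 read 3.30 against 3.93, a difference of -0.63, while its other 4 probes lay between -0.07 and 0.11. DNAJA3 of mitochondria read 2.65 against 2.26, a difference of 0.39, with probes from -0.12 to 0.97.

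In the DNAJB class, 3 of 13 members were higher (23.1%, against 7.12% of all detected gene names) and 11 were above 0 (84.6%, against 46.8%). Besides DNAJB7 and DNAJB8, the heat inducible DNAJB4 read 2.43 against 0.54, a difference of 1.88 (3.69-fold). Its second probe, printed above, read -2.55 against -4.48, a difference of 1.92. Both DNAJB4 probes were thus higher to the same extent, the second from a dim level in the Zebu testis. DNAJB1, the main J-domain protein of the heat shock response, read 4.15 against 3.27, a difference of 0.88, and 0.15 with its second probe. DNAJB2, which sorts clients towards the proteasome, read 3.81 against 3.76, with probes from -0.42 to 0.80. DNAJB5 read 0.98 against 0.41, a difference of 0.57, with probes from -0.72 to 0.57. The remaining DNAJB6, DNAJB9, DNAJB11, DNAJB12 and DNAJB14 lay between -0.49 (DNAJB14) and 0.30 (DNAJB12).

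In the DNAJC class, 2 of 26 members were higher, DNAJC5B and DNAJC10 (7.69%, near the 7.12% of all detected gene names). DNAJC10, which reduces disulfides of misfolded proteins in the endoplasmic reticulum, read 3.84 against 2.15, a difference of 1.69 (3.23-fold), but its 5 other probes gave only 0.66, 0.48, 0.36, 0.29 and 0.01. Its call therefore rests on 1 of 6 probes, and with the mean or the median over its probes DNAJC10 was not called. DNAJC24 (1.21) and DNAJC21 (1.19) were higher below the threshold, with other probes down to 0.31 and 0.20. DNAJC6, auxilin, which uncoats clathrin vesicles, read -3.89 against -2.64, a difference of -1.25. Its second detected probe was well above background in the Zebu testis only. DNAJC15 of the mitochondrial inner membrane read 4.55 against 3.81 (0.74), DNAJC3, an inhibitor of the kinase PERK, 3.79 against 3.62 (0.17), and DNAJC2, which works at the ribosome, 3.49 against 3.66 (-0.17). The median of the class was 0.17.

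**Figure D5:**
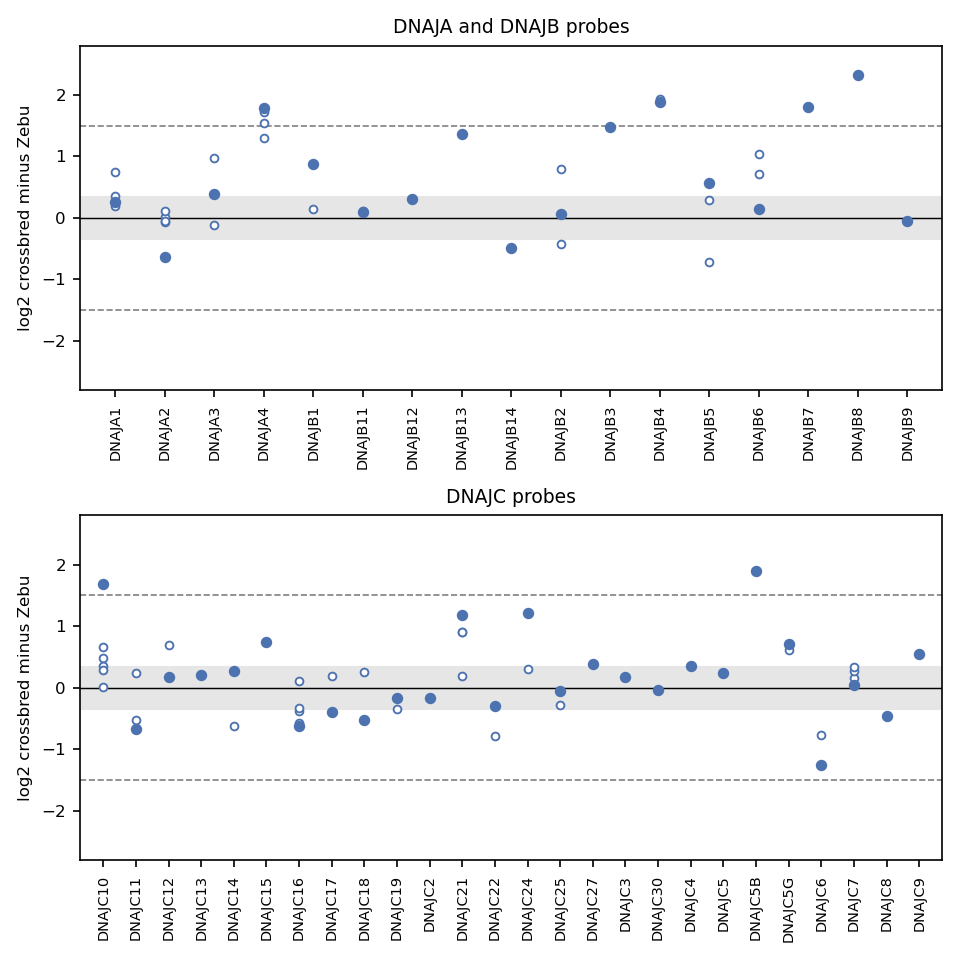
Difference between the crossbred and the Zebu array on the log2 scale (y axis) for every detected probe of the DNAJA and DNAJB genes (upper panel) and of the DNAJC genes (lower panel). Filled points are the brightest probe of a gene and open points its other probes, the grey band is the replicate-spot SD of a difference (0.34), and the dashed lines mark 1.5. The probes of DNAJA4 and DNAJB4 stay together, between 1.29 and 1.92, while those of DNAJC10 spread from 0.01 to 1.69. The open point of DNAJC6 is drawn at its bound.

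Where a gene had several probes they served as a check on the direction. Of the 80 members, 48 had at least 2 detected probes, and in 32 of these all probes had the same sign. The median gap between the lowest and the highest probe of a gene was 0.54. It exceeded 1 in 7 members: HSPA4, HSP90AA1, CCT6A, DNAJA3, DNAJB2, DNAJB5 and DNAJC10. Of the 11 members past 1.5, 5 had further detected probes, 12 in all. Each of these 12 had the sign of the brightest probe, and 6 of them also passed 1.5. The other 6, HSPA4L, HSPA1L, CCT8L2, DNAJB7, DNAJB8 and DNAJC5B, rest on 1 probe of that name. In 11 members, 12 pairs of probes share a run of 20 or more bases and are not independent readings.

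The heat inducible chaperones of the cytosol, a list that crosses the families, did not move as a block. Of the 15 on the array, DNAJB4 was higher and HSPB8 was lower (6.67% each, against 7.12% and 2.92% of all detected gene names). There were 7 above 0 and 8 below, and the median was -0.21, or -0.47 with the mean over the probes of each gene. Their regulators differed little: HSF1, the main factor of the heat shock response, read 2.59 against 2.72 (-0.14), HSF2 2.82 against 2.99 (-0.16) and HSF4 -3.41 against -3.10 (-0.31). HSFY2, a heat shock factor relative encoded on the Y chromosome and expressed in the testis, read 1.71 against 0.18, a difference of 1.54, and 1.14 with its second probe. HSF2BP (0.42) and HSBP1 (0.22), which bind heat shock factors, stayed below the threshold.

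Of 30 partners of HSP70 and HSP90, among them HSPBP1 (2.67 against 2.39, a difference of 0.28) and HSPBAP1 (-0.04 against -0.63, a difference of 0.58), 1 was higher, 1 was lower, and the median was -0.17. The higher one was BAG4 (3.27 against 1.46, a difference of 1.81) and the lower one BAG2 (0.24 against 1.75, a difference of -1.51, and -0.83 with its second probe). Both are exchange factors of HSP70. Each call was 3.33% of the 30, against 7.12% higher and 2.92% lower of all detected gene names. BAG3, the partner of HSPB8, read 2.71 against 2.19, a difference of 0.53, with probes from -0.64 to 0.53. Of the 19 chaperones of the endoplasmic reticulum, DNAJC10 was called (5.26%) and none was lower (median 0.11). Of the 15 of mitochondria, CLPB, which pulls proteins out of aggregates, was higher (2.95 against 1.02, a difference of 1.93). That was 6.67% of the list, and none was lower (median 0.11). None of 9 prefoldin subunits and phosducin-like proteins passed 1.5 (median 0.15).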

How the data were processed

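The arrays were Agilent bovine gene expression arrays, 1 per group, scanned on 1 slide. The scanner files hold spot intensity, which per the file headers the authors extracted and background-subtracted with Feature Extraction 11.5.1.1, and the deposited series table holds the authors' log2 values after a shift to the 75th percentile. Here the log2 of the processed signal was taken, 13 outlier spots of non-control probes were left out, no spot was saturated, repeated spots were averaged by probe, and the array's 75th percentile (a signal of 1176 for crossbred and 1233 for Zebu) was subtracted. For crossbred 72.0% and for Zebu 74.3% of 61657 non-control spots were well above background, a flag of the scanner software. Each gene name was represented by the probe of highest mean level, and counts of calls used log2 differences of 1.5. A dim side was bounded by the lowest level well above background (-5.78 crossbred, -5.94 Zebu). With 1 array a group, no test and no p-value was possible, and precision is limited by there being 1 array a group. The members and lists were chosen with earlier results of these data known. Genes were named by family: all HSP and CCT members and germ cell chaperones, the DNAJ members past 1.5, those with the 3 highest levels of each letter, those whose probes disagreed, and outside the rule those past 1.5 and the heat shock factors; DNAJC21, DNAJC24, DNAJC6 and others just under the threshold were added after their values were seen. Alternatives were other scalings, the normexp background correction of limma 3.58.1 (R 4.3.3, offset 50), other filters, other summaries over probes, other thresholds and leaving out the 2 patches. Python 3.11.15 with pandas 2.3.3 was used, and the steps were tested on simulated data. Of the 80 names, 79 are symbols of the RefSeq gene table (ARS-UCD2.0), which was used for names only.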

Additional observations from a re-analysis of the deposited data

How the results depend on the processing

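The 9 higher and 2 lower members were the same genes under normexp, a shift by the median, the 75th percentile over probes above background, quantile normalization, the deposited log2 values, only probes above background on both arrays, and no background filter. DNAJC10 was lost, leaving 8 higher members, with the mean or the median over the probes of a gene, where its difference was as low as 0.42. Without the spots of the patches 1 member was lower, since CCT6B was not measured. The counts follow the threshold: 13 higher and 7 lower members at a log2 difference of 1 (16.25% and 8.75%, against 12.8% and 8.87% of all gene names), 17 and 11 at 1.5-fold (21.25% and 13.75%, against 21.4% and 22.2%), and 3 and 1 at a log2 difference of 2 (3.75% and 1.25%, against 3.49% and 1.20%). The share of higher members was thus near that of all gene names at 1.5-fold and at a log2 difference of 2. Germ cell chaperones were higher in 10 cases at 1.5-fold and in 3 at a log2 difference of 2. Counting every probe gave 12 higher and 5 lower of 182 detected (6.59% and 2.75%), near the 6.14% and 2.99% of all detected probes. The median of the members ranged from 0.07 to 0.18 and that of the germ cell chaperones from 1.54 to 1.80, and no median of a list moved by more than the SD of replicate spots. With normexp, 4.16% of all gene names were higher and 0.683% lower, against 7.12% and 2.92%, while the members' calls stayed. Of the single-gene differences recomputed, 771 moved by less than the SD of replicate spots, 26 by more, and no called one changed sign. No paired analysis was possible because each group has 1 array. Signal near background limits HSPA6 and HSPB3. DNAJC6, also dim, moved from -1.25 to -0.63 with normexp.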

Other observations

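Among genes outside the rule, the testis forms of the lectin chaperones read higher in the crossbred testis, beside general forms near or below 0. Neither testis form passed 1.5 on the probe read. CALR3, the calreticulin of spermatids, read 5.40 in the crossbred and 4.08 in the Zebu testis, a difference of 1.32, and its 4 probes ranged from 1.32 to 2.01. CALR itself read 6.39 against 6.27, a difference of 0.11, with 6 probes from -0.81 to 0.11. CLGN, calmegin, a calnexin relative of germ cells, read 6.45 against 5.91, a difference of 0.54. CANX read 4.02 against 4.56, a difference of -0.54. PDCL2, a phosducin-like protein of germ cells, read 4.53 against 3.37, a difference of 1.16, and PDCL and PDCL3 gave -0.88 and -0.68. These genes were picked after their values were seen.

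Several partners of HSP70 and HSP90 were lower with every probe without passing 1.5. ST13, which stabilises the ADP state of HSP70, differed by -0.95 with 5 probes from -1.17 to -0.58. STIP1, which passes clients from HSP70 to HSP90, differed by -0.44 with 6 probes from -0.65 to -0.33, and TOMM34, a cochaperone at the mitochondrial surface, by -0.82 with 3 probes from -0.94 to -0.62. They were also picked after their values were seen.

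The 9 higher members and the 69 members that were not called had the same median GC content in the probe read, 41.7%.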
